A study of Rattus norvegicus with 12 samples.

Results

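Iron enters cells through transporters and the transferrin receptor, is held in ferritin, and leaves through ferroportin. The 10 genes described here cover these steps in rat lung: Tfrc, Slc11a1, Slc11a2, Slc39a14 and Steap3 for uptake, Slc40a1, Cp and Hamp for export and its control, and Fth1 and Ncoa4 for storage. They were taken by symbol from a table of 32883 genes, and all 10 were found and passed the filter on low counts that left 15257 genes for testing. Slc40a1 stood on 2 rows of the table, of which 1 held 0 counts in every library and was not used.

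RNA was sequenced from whole lungs of wild-type rats in 3 groups of 4 libraries. The MCT-Fer-1 group received monocrotaline and ferrostatin-1, the MCT-vehicle group monocrotaline and the vehicle of ferrostatin-1, and the Control group is labelled as control with neither agent stated. Ferrostatin-1 or vehicle was given for 10 days, and all samples are labelled 25 days, with no starting day named. Monocrotaline is a plant alkaloid that injures lung vessels and is used to model pulmonary hypertension, and ferrostatin-1 inhibits ferroptosis, a death of cells through iron and oxidised membrane lipids. Against Control, monocrotaline and vehicle dosing cannot be told apart. Strain, sex, age, dose and route do not appear in the sources used here. Nor do the labels say that the libraries are from different rats, so p-values measure only how these samples scatter, which may be technical.

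In textbook outline, transferrin carries ferric iron to its receptor, the complex is taken into endosomes, a reductase turns the iron ferrous, and a metal transporter passes it to the cytosol. Ferritin stores the surplus, and a cargo receptor delivers ferritin to lysosomes when iron is needed. Ferroportin is the known cellular iron exporter, a ferroxidase helps load the exported iron onto transferrin, and the hormone hepcidin removes ferroportin from the cell surface. Iron regulatory proteins bind the messenger RNAs of the transferrin receptor, ferritin and ferroportin, so that much of the control lies after transcription and an RNA level is no measure of the protein. In lung, macrophages take up and recycle iron.

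Library totals ran from 11601929 to 70627239 counts in MCT-Fer-1, from 13654695 to 24016262 in MCT-vehicle and from 16640022 to 18229992 in Control. Levels are given as CPM, counts scaled to a library size of 1e+06 with TMM factors, a normalization on the trimmed mean of fold changes. CPM do not correct for gene length, so levels are compared between groups and not between genes. A count of 3, taken as the detection floor, came to between 0.0420 and 0.259 CPM. Surfactant and other alveolar type 2 markers summed to between 19838 and 34154 CPM in every library, so the defining markers of lung were present. Heart-muscle markers, 10 listed, were high in MCT-vehicle 2 at 418 CPM and in Control 4 at 265 CPM, against 17.3 to 81.8 CPM in the other 10 libraries. Where a call changes without these libraries this is said, in most cases with the value.

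Of the 10 genes, 7 had a RefSeq promoter entry on the rat assembly GRCr8. The 250 bases before the annotated start are shown for Cp and Slc40a1, which passed a test against Control, for Hamp, which differed most between libraries, and for Tfrc as the uptake receptor. Capitals mark letters found in a search of both strands for 6 motifs, which were TTCNNNGAA for STAT factors, GGCGCC as the core of the BMP-responsive element, ACGTG as the hypoxia-responsive core, TTGCNNAA for C/EBP factors, TGACNNNGC as the antioxidant response core and TATAAA as the TATA box.
Cp, chr2:104368420-104368669, plus strand: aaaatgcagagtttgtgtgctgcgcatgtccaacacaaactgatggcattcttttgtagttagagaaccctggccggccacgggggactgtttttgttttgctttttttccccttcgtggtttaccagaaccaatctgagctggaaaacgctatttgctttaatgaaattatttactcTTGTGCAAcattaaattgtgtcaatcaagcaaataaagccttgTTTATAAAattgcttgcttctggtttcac
Slc40a1, chr9:55543461-55543710, minus strand: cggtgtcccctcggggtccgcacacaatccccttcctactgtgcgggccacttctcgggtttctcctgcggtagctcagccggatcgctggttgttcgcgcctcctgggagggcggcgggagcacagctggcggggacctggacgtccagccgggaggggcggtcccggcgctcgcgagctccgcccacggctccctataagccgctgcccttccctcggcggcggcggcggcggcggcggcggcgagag
Hamp, chr1:95300272-95300521, minus strand: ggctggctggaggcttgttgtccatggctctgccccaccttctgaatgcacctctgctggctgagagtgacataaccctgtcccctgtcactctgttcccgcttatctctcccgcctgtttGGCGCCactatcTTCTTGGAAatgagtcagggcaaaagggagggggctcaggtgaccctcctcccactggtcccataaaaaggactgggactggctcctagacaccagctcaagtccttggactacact
Tfrc, chr11:81690319-81690568, minus strand: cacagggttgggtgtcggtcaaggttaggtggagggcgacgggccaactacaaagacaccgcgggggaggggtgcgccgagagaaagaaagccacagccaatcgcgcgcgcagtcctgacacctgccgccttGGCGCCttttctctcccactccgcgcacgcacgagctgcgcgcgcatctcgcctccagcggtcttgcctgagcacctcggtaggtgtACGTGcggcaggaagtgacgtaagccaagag

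The Hamp window held the STAT match TTCTTGGAA with its first base 117 bases before the start and a BMP core 129 bases before it. In human, the hepcidin promoter is known to carry a STAT site that answers to interleukin 6 and BMP-responsive elements. Of all 33469 windows of the same length, 7.67% held the STAT letters and 8.69% the BMP core. The Cp window held a C/EBP match, TTGTGCAA, 72 bases before the start, present in 9.22% of all windows, and a TATA box read on both strands in overlapping letters, present in 12.9%. The Tfrc window held a hypoxia core 31 bases before the start, present in 16.6% of all windows, and a BMP core. No match to the 6 motifs lay in the Slc40a1 window. These matches are descriptions of letters and were not tested for binding.

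The first question was how the iron genes of monocrotaline lungs given vehicle differed from those of controls. The ferroxidase gene Cp and the transporter genes Slc39a14, Slc11a2 and Slc11a1 were higher in MCT-vehicle, by 1.81-fold, 1.59-fold, 1.34-fold and 1.41-fold. These 4 of 10 passed the test (edgeR quasi-likelihood, Benjamini-Hochberg adjusted p below 0.05 over all genes), 0 were called lower, and 18.6% of all genes tested were called, 10.3% as higher and 8.28% as lower. Cp, Slc39a14 and Slc11a2, 3 of 10, had groups that did not overlap, as had 21.5% of all genes. Hamp passed the low-count filter only through MCT-vehicle, and over the other 9 genes the median log2 fold change was 0.42, against 0.02 over all genes tested. The genes of ferritin and its turnover, Fth1 and Ncoa4, were not called, nor was the receptor gene Tfrc. Whether a level moved through more or fewer cells of a type or through RNA per cell cannot be told apart in whole lung. Of the 4 genes called, Cp alone was still called without MCT-vehicle 2 and Control 4 together, a fit in which 10.9% of all genes were called.

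**Figure D1:**
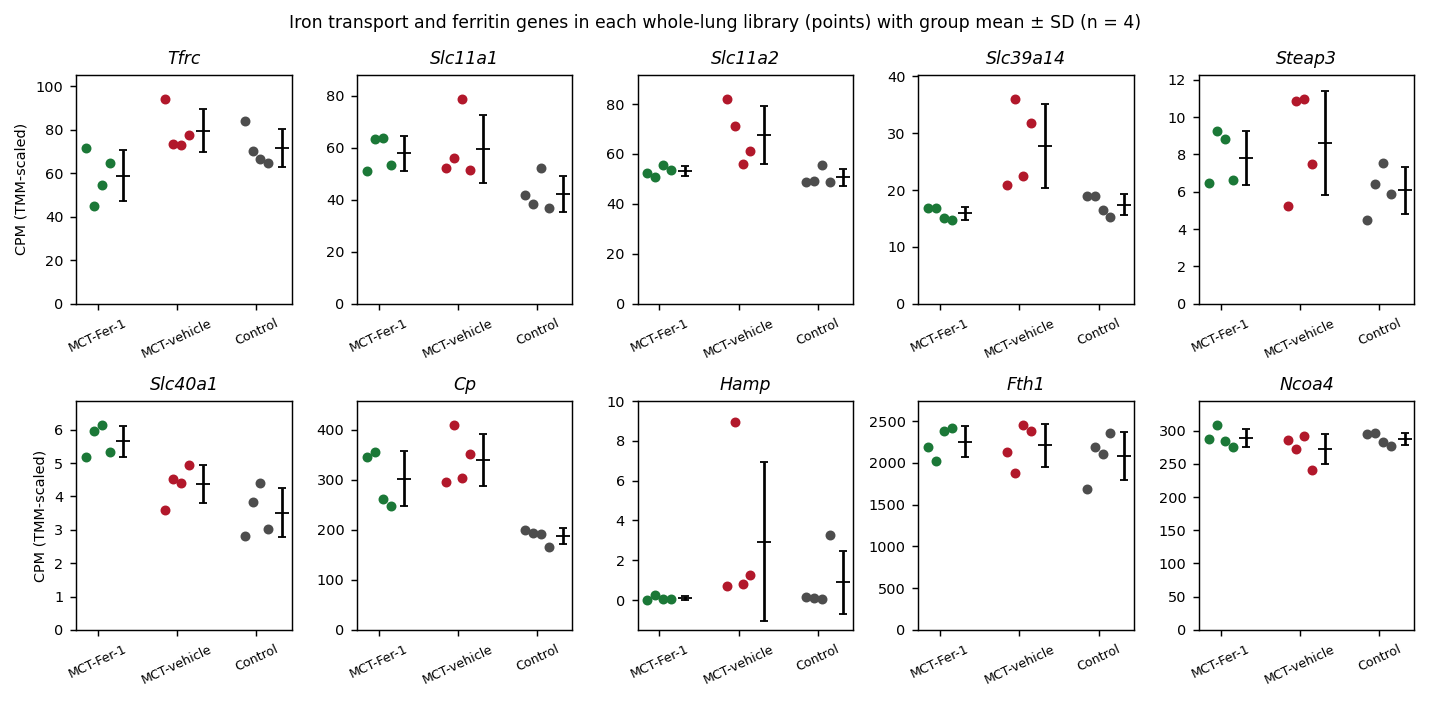
CPM of the 10 iron genes in each library (points, 4 per group) with the group mean and SD at the side, for MCT-Fer-1, MCT-vehicle and Control. Cp lies above all Control libraries in all 8 monocrotaline libraries, Slc39a14 in MCT-vehicle lies above both other groups, and Hamp stands out in MCT-vehicle 2 and Control 4.

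Cp encodes ceruloplasmin, a copper ferroxidase that oxidises iron as it leaves the cell, also made as a plasma protein by liver. Its levels were 345, 356, 262 and 248 CPM in MCT-Fer-1 libraries 1 to 4, 295, 409, 304 and 351 CPM in MCT-vehicle libraries 1 to 4, and 199.98, 194, 192 and 165 CPM in Control libraries 1 to 4. Every monocrotaline library, with or without ferrostatin-1, lay above every Control library. The log2 fold change of MCT-vehicle over Control was 0.86 ± 0.14 (SE; edgeR adjusted p = 0.00112), and that of MCT-Fer-1 over Control was 0.69 ± 0.13 (edgeR adjusted p = 0.00649). Both calls held under all 19 alternatives, with edgeR, DESeq2 or limma adjusted p up to 0.0109 for MCT-vehicle and up to 0.0259 for MCT-Fer-1. Between MCT-Fer-1 and MCT-vehicle the groups overlapped, with a log2 fold change of -0.17 and a 95% interval of -0.47 to 0.13. Of the liver markers Alb, albumin, lay between 0 and 0.241 CPM and Ttr between 0 and 0.178 CPM in all 12 libraries. Apoa1 averaged 0.302, 0.262 and 0.335 CPM in MCT-Fer-1, MCT-vehicle and Control, and Apoc3 0.254, 0.365 and 0.442 CPM. Serpina1, the marker of that list that passed the filter, averaged 7.24, 7.17 and 39.3 CPM. It fell in MCT-vehicle against Control (log2 fold change -2.44). Its level lay far above those of the other listed markers, so its fall is not read as a fall in liver RNA. The part of liver RNA in the Cp level was not tested.

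Slc39a14 encodes ZIP14, which imports zinc, manganese and iron not bound to transferrin. It had 16.9, 16.8, 15.01 and 14.8 CPM in MCT-Fer-1, 20.8, 36.0, 22.4 and 31.8 CPM in MCT-vehicle, and 19.0, 19.0, 16.4 and 15.3 CPM in Control. All 4 MCT-vehicle libraries were above both other groups, which overlapped each other. MCT-vehicle exceeded Control with a log2 fold change of 0.67 ± 0.16 (adjusted p = 0.0113 by edgeR). MCT-Fer-1 lay below MCT-vehicle with a log2 fold change of -0.81 ± 0.16, which was not called (edgeR adjusted p = 0.114), though it ranked 27 of 15257 genes by p. The same difference was called by DESeq2 (adjusted p = 0.00141) and by edgeR without MCT-vehicle 3 (adjusted p = 0.0483). The highest value came from MCT-vehicle 2. Without that library and Control 4 the log2 fold change of MCT-vehicle over Control was 0.46 (edgeR adjusted p = 0.0851), and that of MCT-Fer-1 over MCT-vehicle was -0.66 (edgeR adjusted p = 0.288).

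Slc11a2 encodes DMT1, the proton-coupled transporter that moves ferrous iron out of endosomes. It measured 52.3, 50.9, 55.6 and 53.5 CPM in MCT-Fer-1, 82.0, 71.2, 56.2 and 61.1 CPM in MCT-vehicle, and 48.8, 49.3, 55.7 and 48.9 CPM in Control. MCT-vehicle did not overlap with either group, though its lowest library, MCT-vehicle 3, lay close to the highest of both. Slc11a2 rose in MCT-vehicle against Control, with a log2 fold change of 0.42 ± 0.10 (adjusted p = 0.0135 by edgeR). Without MCT-vehicle 2 and Control 4 it was 0.37 (edgeR adjusted p = 0.0827). MCT-Fer-1 had a log2 fold change of -0.35 ± 0.10 over MCT-vehicle (unadjusted p = 0.00456, edgeR adjusted p = 0.237) and of 0.07 over Control, with a 95% interval of -0.17 to 0.30. The counts are per gene and do not separate the transcripts of its 2 annotated starts.

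Slc11a1 encodes NRAMP1, a metal transporter of the phagosome known from macrophages. Its values were 50.9, 63.2, 63.9 and 53.3 CPM in MCT-Fer-1, 52.1, 55.9, 78.8 and 51.4 CPM in MCT-vehicle, and 41.7, 38.4, 52.2 and 36.9 CPM in Control. The groups overlapped through Control 3. MCT-vehicle was higher than Control with a log2 fold change of 0.49 ± 0.15 (adjusted p = 0.0377 by edgeR), a call that 7 of 19 alternatives lost. It was lost without MCT-vehicle 2 (edgeR adjusted p = 0.0530), MCT-vehicle 3 (0.0854), Control 1 (0.0728), Control 2 (0.101) or Control 4 (0.105), without MCT-vehicle 2 and Control 4 together (0.127), and with only these 2 groups in the fit (0.0623). Leaving out MCT-vehicle 3, the highest library, gave a log2 fold change of 0.33. MCT-Fer-1 over Control had a log2 fold change of 0.45 ± 0.15 (adjusted p = 0.0743 by edgeR).

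Most macrophage markers were called as higher in MCT-vehicle than in Control, as was Slc11a1. Of the 10 listed, 9 were found, and 7 of these rose and 0 fell, beside 10.3% of all genes called as higher and 8.28% as lower. Their summed level was 1260 to 1406 CPM in MCT-Fer-1, 1242 to 1845 CPM in MCT-vehicle and 894 to 982 CPM in Control. MCT-vehicle 3 had both the highest sum and the highest Slc11a1. Marco, among the 7, was at 0 in every Control library and so passed the filter through the monocrotaline groups. Its call is therefore no support for a rise. Csf1r was not called, with a log2 fold change of 0.06 in MCT-vehicle over Control. In MCT-Fer-1 against MCT-vehicle 8 of the 9 markers were lower, 1 was higher and 0 were called. C1qa, C1qb and C1qc had log2 fold changes of -0.54, -0.43 and -0.59 there, and Slc11a1 one of -0.04. Neutrophil markers are known from a cell type that also holds NRAMP1. They summed to 117 to 546 CPM in MCT-Fer-1, 152 to 254 CPM in MCT-vehicle and 202 to 379 CPM in Control. In MCT-vehicle against Control 0 of 8 rose and 2 fell, beside the same 10.3% and 8.28% of all genes. In MCT-Fer-1 against MCT-vehicle all 8 were higher and 0 were called, with a median log2 fold change of 0.56. The part of these cells in the Slc11a1 level was not tested.

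Tfrc encodes the transferrin receptor, the main route of iron into dividing and red cell precursors. It had 71.4, 44.9, 54.4 and 64.9 CPM in MCT-Fer-1, 94.0, 73.6, 73.2 and 77.5 CPM in MCT-vehicle, and 83.9, 70.3, 66.7 and 64.6 CPM in Control. All MCT-Fer-1 libraries lay below all MCT-vehicle libraries, and Control overlapped with both. MCT-vehicle over Control had a log2 fold change of 0.16 ± 0.14 (adjusted p = 0.465 by edgeR), and MCT-Fer-1 over MCT-vehicle one of -0.44 ± 0.14 (unadjusted p = 0.00769, edgeR adjusted p = 0.268). Of 8 erythroid markers, 6 were found and all 6 fell in MCT-vehicle against Control, where 8.28% of all genes were called as lower. The sum of these markers was 1658 to 3389 CPM in MCT-Fer-1, 1717 to 2252 CPM in MCT-vehicle and 3327 to 5479 CPM in Control. The part of red cell precursors in the Tfrc level was not tested.

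Steap3, the endosomal ferrireductase, had 6.46, 9.26, 8.85 and 6.61 CPM in MCT-Fer-1, 5.21, 10.8, 10.96 and 7.46 CPM in MCT-vehicle, and 4.51, 6.42, 7.53 and 5.86 CPM in Control. Every pair of groups overlapped. MCT-vehicle over Control had a log2 fold change of 0.50 ± 0.24 (adjusted p = 0.178 by edgeR), which passed the threshold without MCT-vehicle 1, the lowest of its group (log2 fold change 0.68, edgeR adjusted p = 0.0491).

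Slc40a1 encodes ferroportin. Its levels were 5.17, 5.94, 6.13 and 5.34 CPM in MCT-Fer-1, 3.59, 4.54, 4.40 and 4.94 CPM in MCT-vehicle, and 2.80, 3.82, 4.40 and 3.02 CPM in Control. MCT-Fer-1 lay above every library of both other groups, which overlapped. These levels rest on 51 to 382 counts per library. MCT-Fer-1 over Control had a log2 fold change of 0.69 ± 0.18 (adjusted p = 0.0274 by edgeR). The call was lost without MCT-Fer-1 2 (edgeR adjusted p = 0.0715), MCT-Fer-1 3 (0.0804), Control 1 (0.0737) or Control 4 (0.0839), and without MCT-vehicle 2 and Control 4 together (0.0926), while the log2 fold change stayed between 0.59 and 0.81 under all 19 alternatives. MCT-vehicle over Control had a log2 fold change of 0.31 ± 0.18 (adjusted p = 0.251 by edgeR), and MCT-Fer-1 over MCT-vehicle one of 0.37 ± 0.18 (edgeR adjusted p = 0.423).

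Hamp encodes hepcidin, made mainly by liver and known also from heart muscle. Its counts were 0, 6, 2 and 5 in MCT-Fer-1, 17, 197, 11 and 24 in MCT-vehicle, and 3, 2, 1 and 55 in Control, or 0 to 0.277 CPM, 0.726 to 8.94 CPM and 0.0602 to 3.26 CPM. The 2 high libraries, MCT-vehicle 2 and Control 4, were the same 2 that held the most heart-muscle transcripts. Only MCT-vehicle had 10 counts or more in all 4 libraries, so the gene passed the low-count filter through that group. With 0 counts in MCT-Fer-1 1, a level of up to 0.259 CPM is allowed there.

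**Figure D2:**
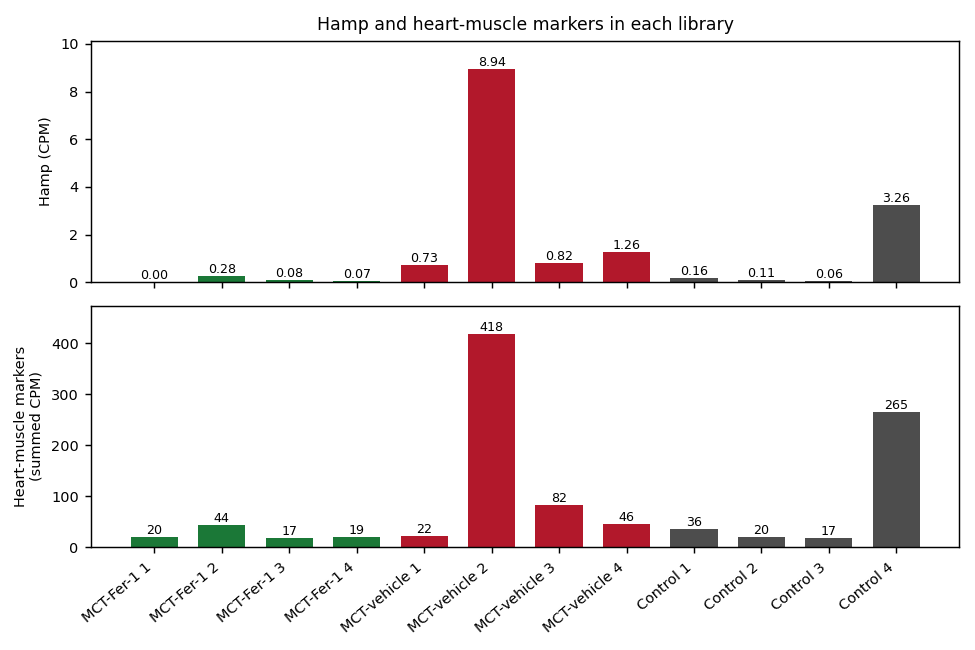
Hamp in CPM (upper bars) and the summed CPM of 10 heart-muscle markers (lower bars) in each library of MCT-Fer-1, MCT-vehicle and Control. Both are highest in MCT-vehicle 2 (8.94 and 418 CPM) and next in Control 4 (3.26 and 265 CPM).

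The log2 fold change of Hamp in MCT-vehicle over Control turned on the 2 high libraries. It was 1.73 over all libraries, 4.65 without Control 4, 0.07 without MCT-vehicle 2 and 2.99 without both. Because the filter kept Hamp through MCT-vehicle, where it was high, these are given as values with no call. In the 3 remaining libraries of each group there were 52 counts in MCT-vehicle and 6 in Control, a ratio of CPM of 8.20 with an exact 95% interval of 3.52 to 23.4. The 4 MCT-Fer-1 libraries held 13 counts, a ratio of 0.106 to those 3 MCT-vehicle libraries with an interval of 0.0531 to 0.198. Their ratio to the 3 Control libraries was 0.873 with an interval of 0.309 to 2.80. These ratios are of pooled counts, and their intervals cover counting error only, with no scatter between libraries. They describe these libraries and are no test, as the filter kept Hamp through MCT-vehicle. Heart-muscle markers summed to 17.4 to 44.3 CPM in MCT-Fer-1, to 21.7, 81.8 and 46.0 CPM in MCT-vehicle libraries 1, 3 and 4, and to 17.3 to 35.6 CPM in Control libraries 1 to 3. The part of heart muscle in the Hamp level was not tested.

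Fth1 encodes the heavy chain of ferritin, which oxidises iron for storage. It had 2185, 2020, 2379 and 2420 CPM in MCT-Fer-1, 2124, 1879, 2448 and 2386 CPM in MCT-vehicle, and 1683, 2194, 2108 and 2355 CPM in Control. All groups overlapped, and Control 1 was the lowest library. The log2 fold change of MCT-vehicle over Control was 0.08 with a 95% interval of -0.18 to 0.35, and that of MCT-Fer-1 over MCT-vehicle was 0.03 with an interval of -0.24 to 0.29. Ferritin genes have processed copies in the genome between which reads can be split, so the Fth1 level is uncertain.

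Ncoa4 encodes the receptor that takes ferritin to lysosomes for iron release. Its values were 287, 308, 285 and 275 CPM in MCT-Fer-1, 285, 272, 292 and 241 CPM in MCT-vehicle, and 295, 296, 282 and 277 CPM in Control. The groups overlapped throughout, and the coefficient of variation within a group was 3.27 to 8.28%. MCT-vehicle over Control had a log2 fold change of -0.08 with a 95% interval of -0.23 to 0.08, and MCT-Fer-1 over MCT-vehicle one of 0.08 with an interval of -0.07 to 0.24. 

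**Figure D3:**
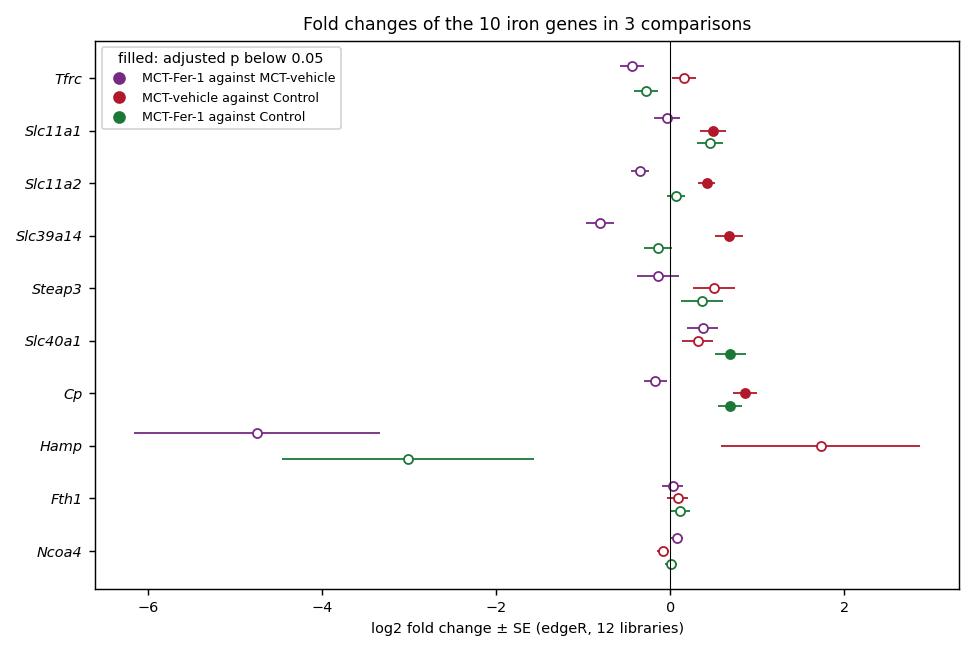
Log2 fold changes of the 10 iron genes with SE in MCT-Fer-1 against MCT-vehicle, MCT-vehicle against Control and MCT-Fer-1 against Control, with filled points for an adjusted p below 0.05. Filled points are Cp, Slc39a14, Slc11a2 and Slc11a1 in MCT-vehicle against Control, and Cp and Slc40a1 in MCT-Fer-1 against Control.

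The second question was how ferrostatin-1 altered these genes in monocrotaline lungs. Of the 10 genes edgeR called 0, and of all 15257 tested it likewise called 0, or 0%, so the values that follow stand without a call. The uptake genes Slc39a14, Slc11a2 and Tfrc had values in all MCT-Fer-1 libraries below all MCT-vehicle libraries, and those of Slc40a1 were above. Leaving out Hamp, which the filter kept through MCT-vehicle, that makes 4 of 9 genes without overlap, while 6.1% of all genes tested had none, 3.11% with MCT-Fer-1 above and 3% with it below. At an unadjusted p below 0.05 edgeR listed 3 of these 9, namely Slc39a14, Slc11a2 and Tfrc, and 12% of all genes. DESeq2 called Slc39a14 alone of the 10 and 237 genes in all, or 1.59%, and limma voom called 0. The median log2 fold change was -0.14 over the 9 genes and -0.0093 over all genes. Of 30 other iron handling genes tested, described below, 1 had groups that did not overlap. The 10 genes were picked with results of these data known, so these counts are a description.

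The third comparison set MCT-Fer-1 beside Control. Cp and Slc40a1 passed the test as higher, 2 of 10, against 10.8% of all genes called and 6.67% called as higher and 4.12% as lower. The same 2 genes had groups that did not overlap, as had 19.1% of all genes. Slc39a14 had a log2 fold change of -0.14 with a 95% interval of -0.50 to 0.22, and Tfrc one of -0.28 with an interval of -0.59 to 0.03. The 3 comparisons share libraries, so their values for a gene are not independent. Set side by side as MCT-Fer-1 over Control and MCT-vehicle over Control, the log2 fold changes were 0.69 and 0.86 for Cp, 0.45 and 0.49 for Slc11a1, 0.07 and 0.42 for Slc11a2, and -0.14 and 0.67 for Slc39a14.

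**Figure D4:**
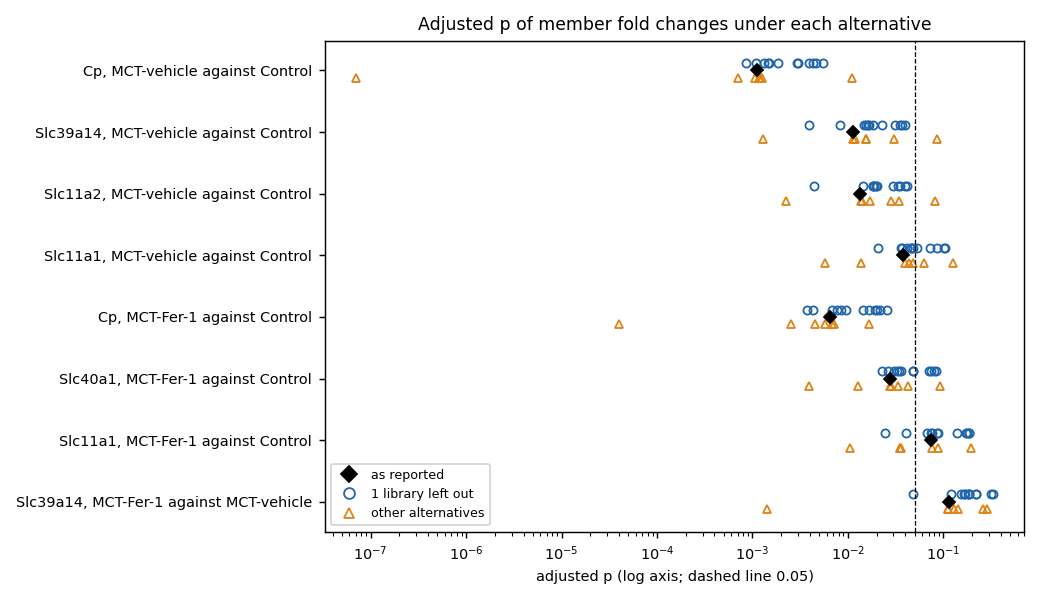
Adjusted p of 8 member fold changes as reported (diamonds), with 1 library left out (circles) and under the other alternatives (triangles), on a log axis with the threshold of 0.05 dashed. Cp stays below the threshold in every setting run in both comparisons with Control. Slc39a14, Slc11a2, Slc11a1 and Slc40a1 lie on both sides of it in each comparison shown.

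Other genes of iron handling were taken from a list of 37, of which 36 were found and 30 tested. In MCT-vehicle against Control 9 of these 30 rose and 1 fell, or 33.3% called against 18.6% of all genes tested, with a median log2 fold change of 0.11 against 0.02 over all genes. In MCT-Fer-1 against MCT-vehicle 0 of 30 were called by edgeR, with 1 at an unadjusted p below 0.05, and 0 by DESeq2 or limma voom. There 1 of 30, Steap1, had groups that did not overlap, against 6.1% of all genes. In MCT-Fer-1 against Control 6 rose and 2 fell, or 26.7% called, against 10.8% of all genes. Without MCT-vehicle 2 and Control 4, 4 of 30 were called in MCT-vehicle against Control, namely Steap1, Prnp, Slc39a8 and Bmp6, or 13.3% against 10.9% of all genes in that fit. Steap1 and Erfe had under 10 counts in every Control library and so passed the filter through the monocrotaline groups, where they were high. Their calls, with that of Steap1 among the 4, are therefore no support for a rise. Without those 2 genes, 7 of 28 rose and 1 fell in MCT-vehicle against Control, or 28.6% called against 18.6% of all genes. The median log2 fold change over the 28 was 0.02 there, the same as over all genes. In MCT-Fer-1 against Control 4 rose and 2 fell, or 21.4% called against 10.8%. The median there was 0.11, against -0.0036 over all genes.

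Among uptake genes, Slc39a8 encodes ZIP8, a close relative of ZIP14, and had 86.5 to 129 CPM in MCT-Fer-1, 99.98 to 127 CPM in MCT-vehicle and 63.1 to 86.5 CPM in Control. It rose in MCT-vehicle, where the groups did not overlap, with a log2 fold change of 0.57 ± 0.14 (adjusted p = 0.0135 by edgeR). Steap1, of the STEAP metalloreductase family, rose by 2.90 ± 0.46 on the log2 scale (edgeR adjusted p = 0.00117), from few reads. It had 9 to 57, 17 to 62 and 2 to 9 counts in MCT-Fer-1, MCT-vehicle and Control. As the filter kept Steap1 through the monocrotaline groups, where it was high, its calls are no support for a rise. In MCT-Fer-1 against Control it rose by 1.71 ± 0.47 on the log2 scale (edgeR adjusted p = 0.0349), a call lost without MCT-Fer-1 2, 3 or 4 or Control 1, 2 or 3 (edgeR adjusted p up to 0.0989). Scara5, known in mouse as a ferritin receptor, had a log2 fold change of 0.81 ± 0.25 (adjusted p = 0.0395 by edgeR). That call was lost in 14 of 19 alternatives (adjusted p up to 0.119), among them each left-out library except MCT-Fer-1 2, MCT-vehicle 1 and MCT-vehicle 4. It was also lost without MCT-vehicle 2 and Control 4 together. Without MCT-vehicle 2 the log2 fold change was 0.48, and MCT-vehicle 2 was the highest library at 77.2 CPM, against 28.7 to 50.6 CPM in the rest of its group. Tf, transferrin itself, averaged 186 ± 44.1 CPM in MCT-Fer-1, 176 ± 17.5 CPM in MCT-vehicle and 176 ± 36.3 CPM in Control (SD, n = 4 each) and was not called.

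In export and storage, Heph encodes hephaestin, a membrane ferroxidase related to ceruloplasmin, and had 87.4 to 107 CPM in MCT-Fer-1, 67.2 to 109 CPM in MCT-vehicle and 55.4 to 67.4 CPM in Control. Its log2 fold change was 0.63 ± 0.13 in MCT-Fer-1 over Control (edgeR adjusted p = 0.00841) and 0.46 ± 0.13 in MCT-vehicle over Control (edgeR adjusted p = 0.0250). The second call was lost without MCT-vehicle 1 (edgeR adjusted p = 0.0588), Control 2 (0.0771) or Control 3 (0.0641), and without MCT-vehicle 2 and Control 4 together (0.0598). Prnp, the prion protein gene, rose by 0.65 ± 0.12 in MCT-Fer-1 and by 0.77 ± 0.12 in MCT-vehicle on the log2 scale, each against Control (edgeR adjusted p = 0.00353 and 0.000771), called in all 19 alternatives of each. Ftl1, the ferritin light chain, had only 45 to 288 counts per library and was not called, and reads of its copies may be split elsewhere.

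Of the iron sensors, Aco1, the iron regulatory protein that doubles as an aconitase, rose by 0.34 ± 0.09 on the log2 scale in MCT-Fer-1 and by 0.31 ± 0.09 in MCT-vehicle, each against Control (edgeR adjusted p = 0.0318 and 0.0322). Each call was lost in 7 of 19 alternatives, with edgeR adjusted p up to 0.105 in MCT-Fer-1 and up to 0.122 in MCT-vehicle. Both were lost without Control 1, 3 or 4, the first also without MCT-Fer-1 2, 3 or 4, and the second also without MCT-vehicle 2, 3 or 4. The second was lost as well without MCT-vehicle 2 and Control 4 together. Ireb2, the partner of Aco1, was not called in either comparison. Lcn2, lipocalin 2, which binds bacterial siderophores, had 651 to 1814 CPM in MCT-Fer-1, 515 to 1522 CPM in MCT-vehicle and 154 to 344 CPM in Control, without overlap of either monocrotaline group with Control. Its log2 fold change was 2.09 ± 0.42 in MCT-Fer-1 over Control (edgeR adjusted p = 0.00924) and 1.99 ± 0.42 in MCT-vehicle over Control (edgeR adjusted p = 0.00697). Without MCT-vehicle 2 and Control 4 the MCT-vehicle value was 1.61 (edgeR adjusted p = 0.0529).

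Of the genes that control hepcidin, Bmp6, a ligand that induces hepcidin in liver, had 38.9 to 58.8 CPM in MCT-Fer-1, 44.5 to 71.7 CPM in MCT-vehicle and 75.5 to 90.6 CPM in Control. It fell in MCT-Fer-1 by 0.77 and in MCT-vehicle by 0.69 on the log2 scale (SE 0.16 each; edgeR adjusted p = 0.00855 and 0.00918), with no overlap with Control in either. Both calls held in all 19 alternatives. Erfe, erythroferrone, a hormone known from erythroblasts that lowers hepcidin, had 102 counts in MCT-Fer-1, 62 in MCT-vehicle and 7 in Control. With counts and library sizes pooled over each group, the ratio was 7.74 for MCT-Fer-1 over Control (95% counting interval 3.63 to 19.7). For MCT-vehicle over Control it was 7.93 (3.63 to 20.5). Pooling gives deep libraries more weight, and the intervals cover counting error only. The mean of library CPM was 0.629 in MCT-Fer-1, 0.741 in MCT-vehicle and 0.101 in Control. The edgeR adjusted p was 0.0202 and 0.00858. As the filter kept Erfe through the monocrotaline groups, where it was high, these calls are no support for a rise. Erfe was no longer called without MCT-vehicle 2 and Control 4 (edgeR adjusted p = 0.0577 and 0.0508), and in MCT-Fer-1 without MCT-Fer-1 4 (0.0662), Control 3 (0.0501) or Control 4 (0.0544).

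Among mitochondrial genes, Abcb8, a transporter of the inner membrane, rose by 0.32 ± 0.08 on the log2 scale in MCT-vehicle (edgeR adjusted p = 0.0173), a call lost without Control 4 (0.0577) and without it and MCT-vehicle 2 together (0.125). Slc25a28, mitoferrin 2, fell by 0.49 on the log2 scale in MCT-Fer-1 against Control (SE 0.14; edgeR adjusted p = 0.0469), and 10 of 19 alternatives lost that call (edgeR adjusted p up to 0.136), among them each left-out library except MCT-Fer-1 1, MCT-vehicle 1 and MCT-vehicle 4.

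**Figure D5:**
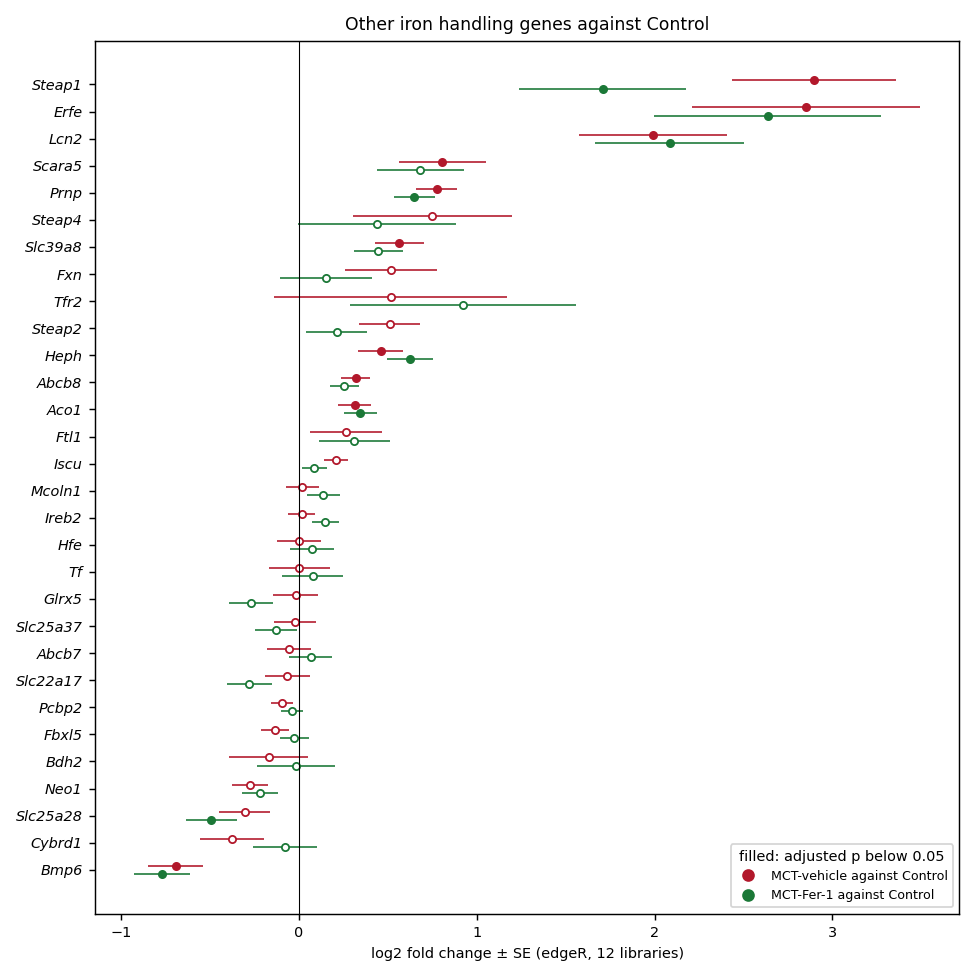
Log2 fold changes with SE of the 30 tested other iron handling genes in MCT-vehicle against Control and MCT-Fer-1 against Control, ordered by MCT-vehicle against Control, with filled points for an adjusted p below 0.05. Steap1, Erfe and Lcn2 lie far to the right in both, and Bmp6 is lowest in both.

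Genes whose levels most resembled the called members were sought by the root-mean-square difference of mean-centred log2 CPM over the 12 libraries, which share their 3 groups. The nearest to Cp were Gpm6b at 0.12 and Fbn1 at 0.12, against a spread of Cp itself of 0.41. For Slc11a1 they were Hvcn1 at 0.09 and Prcp at 0.11, against its own spread of 0.30, and for Slc11a2 they were Ptpn1 and Isg20, both at 0.10, against 0.22. For Slc39a14 the nearest were Zfp202 at 0.20 and Rpp38 at 0.21, against 0.40. Beside their own spreads, the likenesses of Slc11a2 and Slc39a14 were looser than those of Cp and Slc11a1.

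The identifiers are Tfrc (ENSRNOG00000001766), Slc11a1 (ENSRNOG00000014956), Slc11a2 (ENSRNOG00000019550), Slc39a14 (ENSRNOG00000009832), Steap3 (ENSRNOG00000049471), Slc40a1 (ENSRNOG00000003872), Cp (ENSRNOG00000011913), Hamp (ENSRNOG00000021029), Fth1 (ENSRNOG00000022619) and Ncoa4 (ENSRNOG00000019768).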

How the data were processed

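The authors deposited 1 table for 12 whole-lung libraries, whose file header calls its gene values raw read counts. Its 3 further columns hold the authors' group means, a signal averaged from those counts, and were not used. No source used here names an aligner, counter, strand setting or build. Groups came from the sample titles.

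Genes were filtered with edgeR's filterByExpr on the 3 groups (99.94% of counts kept), scaled by TMM, and fitted with 1 coefficient per group over all 12 libraries by the robust quasi-likelihood method. The SE is the log2 fold change divided by the square root of F, and 95% intervals use 9 residual degrees of freedom. Fits ran in edgeR 4.0.16 under R 4.3.3, with DESeq2 1.42.0 and limma 3.58.1 for alternatives. Within groups, every library pair differed by more than counting noise (lowest chi-square per degree of freedom 10.4), so none was treated as a repeat deposit of another; this does not show that they are from different rats.

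The members, lists and alternatives were chosen with earlier results of these data known. Named were all 10 members, other iron genes called in any comparison, Ftl1, Tf, Ireb2 and Aco1, and the 2 nearest genes of each member called in MCT-vehicle against Control. Where 2 rows carried a symbol, the one with the higher counts was used. Alternatives were DESeq2 size factors, no filter, DESeq2, limma voom with quality weights, only the 2 groups compared, a replicate block, each library left out, and MCT-vehicle 2 and Control 4 left out together. In MCT-vehicle against Control, 0 of 7 alveolar type 2, 0 of 5 airway secretory and 0 of 7 heart-muscle markers were called. Of 7 endothelial markers 1 rose and 3 fell, beside 10.3% of all genes called as higher and 8.28% as lower.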

Additional observations from a re-analysis of the deposited data

Results flagged for a closer look

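In groups of 4, a library was marked when its gap to the nearest other, divided by the range of the group, exceeded Dixon's critical value at 95%. Of 30 groups, 10 genes in 3 groups each, 4 were marked, and chance marks about 1 group in 20. Hamp stood far above the rest of its group in MCT-vehicle 2 at 8.94 CPM (others 0.726 to 1.26 CPM) and in Control 4 at 3.26 CPM (others 0.0602 to 0.165 CPM). Slc11a1 stood high in MCT-vehicle 3 at 78.8 CPM, against 51.4 to 55.9 CPM in the others, and that library also had the highest macrophage marker sum. Slc11a2 stood high in Control 3 at 55.7 CPM, against 48.8 to 49.3 CPM.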

How the results depend on the processing

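Of 569 recomputed member fold changes, 531 kept their direction and side of the threshold, 14 lost a call, 11 gained one and 13 changed sign, none of the last in a called result. Of the 11, 2 were of Hamp in MCT-vehicle against Control, without Control 4 and without Control 4 and MCT-vehicle 2 together. The filter kept Hamp through MCT-vehicle, so these 2 calls, which enter the member counts below, are no support for a rise. Of 530 recomputed fold changes of the other named iron genes, 446 kept both, 56 lost a call, 13 gained one and 15 changed sign. The counts of members called in MCT-vehicle against Control, MCT-Fer-1 against MCT-vehicle and MCT-Fer-1 against Control were 4, 0 and 2. Leaving out 1 library gave 3 to 5, 0 to 1 and 1 to 3 of them, 2021 to 2860, 0 to 41 and 977 to 1714 genes in all, and 7 to 10 and 0 to 0 of the other iron genes in the first and second comparison. Without MCT-vehicle 2 and Control 4 the members called were 2 (Cp and Hamp, the second kept by the filter through MCT-vehicle), 0 and 1, genes in all 1675, 0 and 978, and other iron genes 4 in the first comparison; fewer samples were then in the fit. There Steap3 (0.0029) and Fth1 (-0.038) in MCT-Fer-1 against MCT-vehicle, Ncoa4 (-0.010) in MCT-Fer-1 against Control and Ireb2 (-0.062) in MCT-vehicle against Control changed sign. In MCT-Fer-1 against MCT-vehicle DESeq2 called 1 member and 237 genes, and the fit of only those groups called 1 gene; the cause was not tested. Tf in MCT-vehicle against Control stood at 0.0020 and changed sign with DESeq2 size factors (-0.0030), no filter (-0.0091), DESeq2 (-0.0032) and the 2 groups alone (-0.0030). Leaving out 1 library gave log2 fold changes on both sides of 0 for genes not called: Fth1 from -0.0072 to 0.153 in MCT-vehicle against Control and from -0.043 to 0.080 in MCT-Fer-1 against MCT-vehicle, Slc11a1 from -0.10 to 0.124 in MCT-Fer-1 against MCT-vehicle, and Ncoa4 from -0.027 to 0.026 in MCT-Fer-1 against Control. Likewise Tf ran from -0.103 to 0.138 in MCT-vehicle and from -0.064 to 0.215 in MCT-Fer-1, and Ireb2 from -0.026 to 0.052 in MCT-vehicle, all against Control. With the replicate number as a block there were 4, 0 and 3 members and 2812, 0 and 1676 genes called. The labels do not state that equal numbers pair rats, and deviations of equally numbered libraries correlated at r of -0.06 to 0.10. Depth limits Hamp and Erfe, whose counts lie near the floor.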
